A study of Homo sapiens with 6 samples.

Results

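The genes described here are 39 epithelial junction, keratin and EMT genes, out of 60683 genes in the deposited count table of RCC4 cells. They were taken by name: keratins, cadherins, catenins, claudins and other junction proteins, vimentin, and transcription or splicing factors of the epithelial-mesenchymal transition (EMT). RNA was sequenced in RCC4 cells, a human renal carcinoma line, in which ATF4 was knocked out (ATF4 KO, n = 3), and in parental RCC4 cells labelled wild type (n = 3). ATF4 is a bZIP transcription factor of the integrated stress response. The comparison asks which of these transcripts differ when the cells carry the ATF4 knockout. No treatment, age or time point is given for either group. The labels do not say how the knockout was made, whether it is a single clone or a pool, or whether the 3 samples of a group were separate cultures. A difference between the groups therefore cannot be told apart from a difference between 2 cell populations, and the p-values cover no more than the spread among the 6 samples, possibly technical.

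Epithelial cells are held together by adherens junctions, built from cadherins and their catenin partners, by tight junctions, where claudins seal the space between cells, and by desmosomes, which anchor the keratin filaments. In EMT the factors SNAI1, SNAI2, ZEB1, ZEB2 and TWIST1 repress epithelial genes such as CDH1, and vimentin (VIM) and N-cadherin (CDH2) increase, while GRHL2 and the splicing factors ESRP1 and ESRP2 maintain the epithelial state. Renal tubule cells are an unusual epithelium in this respect, since the proximal tubule uses N-cadherin and the cation-permeable claudin CLDN2, and clear cell renal carcinomas often carry keratins and vimentin in the same cell.

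RCC4 cells expressed a mixed set of these genes in both groups. Vimentin, N-cadherin, KRT8, KRT18, CLDN2 and desmosomal genes were abundant, whereas E-cadherin (CDH1), CLDN7, DSC2, TWIST1, GRHL2 and ESRP1 were at or near 0. Of the 39 genes, 29 had enough counts to be tested and 10 did not. In ATF4 KO cells 7 of the 29 were higher (MUC1, DSG2, ZEB1, F11R, TJP1, PKP4 and VIM) and 12 were lower (KRT81, KRT7, CLDN2, SNAI1, ZEB2, EPCAM, PKP2, SNAI2, KRT80, DSP, KRT18 and KRT19), at an adjusted p below 0.05 in edgeR's quasi-likelihood test. The remaining 10 did not pass it. With scaling by total counts in place of TMM the split was even, at 9 higher and 9 lower. Most of the changes were small. Only KRT81, KRT7, MUC1 and CLDN2 changed by at least 0.5 on the log2 scale, and 12 of the 19 called genes changed by less than 0.2.

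Many genes outside this set also differed between the groups. Of all 15321 tested genes, 21.2% were called higher and 20.8% lower, 42.0% in either direction. Among the 29 tested genes described here 24.1% were higher, a share near that background, 41.4% were lower, and 65.5% were called in either direction. These are well expressed genes. At a mean level of 10 CPM or more (CPM is the count scaled to a common library size, here by TMM), 66.7% of these genes (18 of 27) were called, against 53.5% of all tested genes. The sizes were not large, with a median absolute log2 fold change of 0.19 for the 19 called genes and 0.26 for all called genes. The median log2 fold change of the 29 was -0.03, and that of all tested genes was 0.01. The 3 ATF4 KO samples and the 3 parental samples did not overlap in 21 of the 29 genes (72.4%), against 49.6% of all tested genes, and all 19 called genes were among the 21. In the fit corrected for neighbouring genes, described below, 13 of the 19 stayed called. The share of all called genes that stayed called in that fit is not given here, so no comparison with it is made. Levels below are in CPM, and fold changes are ATF4 KO over parental.

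**Figure D1:**
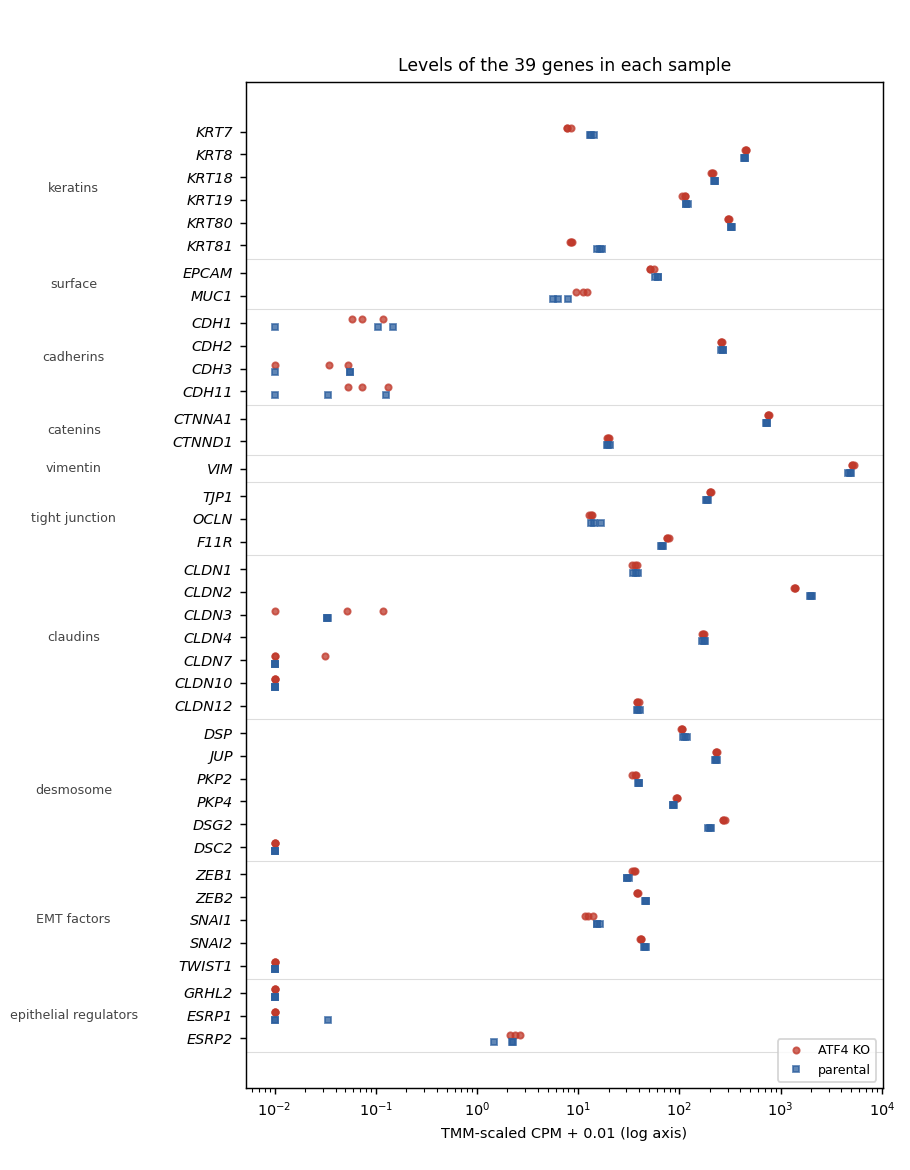
Level of each of the 39 genes in each sample, in TMM-scaled CPM with 0.01 added (log axis), with red circles for the 3 ATF4 KO samples above blue squares for the 3 parental samples. Genes with 0 counts sit at 0.01 CPM on this axis. The samples lie close together for most genes, VIM is highest at a mean of 5166 against 4808 CPM, and DSC2, CLDN10, TWIST1 and GRHL2 are at 0 in all 6 samples.

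**Figure D2:**
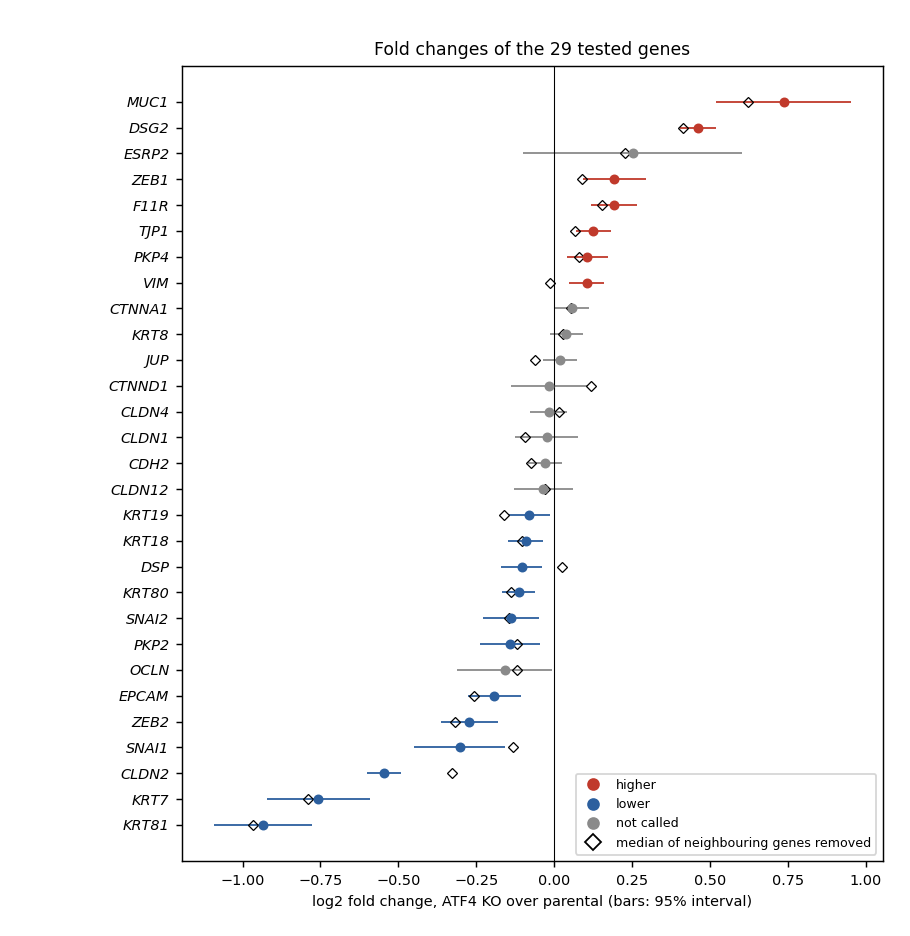
Log2 fold change (ATF4 KO over parental, n = 3 per group) of the 29 tested genes, ordered by size. Filled circles are red for higher, blue for lower and grey for not called, bars are 95% intervals from the standard error, and open diamonds give the value after the median of neighbouring genes was removed. MUC1 lies highest at 0.74 and KRT81 lowest at -0.93, and the diamonds of VIM and DSP, among called genes, and of JUP, CTNND1 and CLDN4, among genes not called, fall on the other side of 0.

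The samples were sequenced to similar depth, with 41002611 to 46755358 counts in ATF4 KO samples and 42502027 to 44524187 in parental samples. For a gene without counts in a library, counting error alone allows a level of 3 counts, which is 0.0642 to 0.0732 CPM. The groups were apart on the first principal component (55.7% of the variance), where no sample left its group. ATF4 mRNA was at 210, 223 and 209 CPM in ATF4 KO samples, against 240, 251 and 243 CPM in parental samples. Its log2 fold change was -0.19 (edgeR adjusted p = 3.19e-07). The genes around ATF4 on chromosome 22 had a median of -0.25, and with that median removed ATF4 was at 0.064 (edgeR adjusted p = 0.0853). An mRNA level of this kind does not check whether the protein was lost. The renal lineage factor PAX8 (207 to 222 CPM in ATF4 KO, 234 to 241 CPM in parental) was well expressed, as the labelled cell line should have it. The list of 7 renal carcinoma markers, which includes HIF-responsive genes, summed to 894 to 936 CPM in ATF4 KO samples and 619 to 642 CPM in parental samples. In this list CA9, NDUFA4L2, ANGPTL4 and EGLN3 were called higher, with log2 fold changes of 2.55, 0.77, 0.89 and 0.21. The other genes did not rise, with PAX8 called lower (-0.15) and PAX2 and LHX1 not called (-0.10 and -0.03). None of 5 immune and 6 endothelial markers was expressed enough to be tested, with the immune list summing to 0.0729 to 0.254 CPM in ATF4 KO samples and 0.114 to 0.253 CPM in parental samples, and the endothelial list to 0.0846 to 0.172 CPM and 0.119 to 0.182 CPM. CD3E, CD14 and CLDN5 were at 0 in all samples. Of 6 fibroblast markers only COL1A1 was tested, at 46.5 to 46.7 CPM in ATF4 KO samples and 49.7 to 62.0 CPM in parental samples, while DCN and LUM were at or near 0. Since neighbouring genes shifted together in places, each fold change was also computed after removing the median log2 fold change of up to 50 tested genes on either side, called the neighbour-corrected value below.

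Among the keratins the 2 low ones changed most. KRT7, a type II keratin of simple ducts, was at 8.49, 7.74 and 7.80 CPM in ATF4 KO samples, against 13.3, 13.1 and 14.3 CPM in parental samples. KRT81, a type II keratin best known from hair, was at 8.49, 8.69 and 8.27 CPM in ATF4 KO samples, against 15.2, 17.1 and 16.4 CPM in parental samples. For both genes every ATF4 KO sample lay below every parental sample. KRT7 (chromosome 12, 52232520 to 52252186) was lower by 1.69-fold, with a log2 fold change of -0.76 (SE 0.085, edgeR adjusted p = 7.37e-11) and a neighbour-corrected value of -0.79. KRT81 (chromosome 12, 52285913 to 52291534) was lower by 1.91-fold, at -0.93 (SE 0.080, adjusted p = 1.29e-14) and -0.97 after the correction. In bulk RNA, fewer cells with a transcript and less of it per cell cannot be told apart.

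The abundant keratins moved little. KRT8 and KRT18 pair as the keratin filament of simple epithelia. KRT8 was at 458, 457 and 445 CPM in ATF4 KO samples, against 442, 443 and 439 CPM in parental samples, and was not called (log2 fold change 0.039, 95% interval -0.014 to 0.092, adjusted p = 0.258). Scaling by total counts in place of TMM put it past the threshold at 0.065 (adjusted p = 0.0373). KRT18 was at 214, 209 and 206 CPM in ATF4 KO samples, against 220, 226 and 225 CPM in parental samples, a log2 fold change of -0.092 (SE 0.028, adjusted p = 6.36e-03). Although the samples of the 2 groups did not overlap for either gene, KRT8 lay slightly above and KRT18 slightly below its parental level. The log2 ratio of KRT18 to KRT8, with 0.5 CPM added to each, was -1.10, -1.12 and -1.11 in ATF4 KO samples and -1.01, -0.97 and -0.96 in parental samples. This difference of -0.13 had a two-sided exact permutation p of 0.1, which is the smallest p that 3 against 3 samples can give. The 2 genes lie next to each other on opposite strands, and 16.3% of the annotated exon bases of KRT18 also lie in a KRT8 exon, so their counts depend on the strand setting of the counting, about which the sources used here say nothing. Both also have processed pseudogene copies that can take reads.

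KRT80 and KRT19 completed the group. KRT80, a type II keratin of epithelial differentiation, was at 308, 299 and 301 CPM in ATF4 KO samples, against 329, 327 and 327 CPM in parental samples (log2 fold change -0.11, SE 0.027, adjusted p = 4.79e-04). KRT19, a small type I keratin, was at 115, 113 and 106 CPM in ATF4 KO samples, against 115, 115 and 122 CPM in parental samples. Its highest ATF4 KO sample reached almost the lowest parental samples, and its log2 fold change of -0.080 was barely past the threshold (adjusted p = 0.0488). Leaving out ATF4 KO replicate 2 or 3, or parental replicate 1 or 3, ended the call of KRT19, with log2 fold changes of -0.091, -0.046, -0.093 and -0.055 and adjusted p from 0.059 to 0.339. Per kilobase of annotated exon, KRT8, KRT18 and KRT80 made up 78.5 to 79.4% of the summed level of the 6 keratins in ATF4 KO samples and 76.6 to 77.5% in parental samples. The summed level itself was 249 to 259 CPM per kb in ATF4 KO samples and 269 to 273 CPM per kb in parental samples.

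KRT80, KRT7, KRT81, KRT8 and KRT18 all lie in the type II keratin cluster of chromosome 12, which spans 27 protein-coding keratin genes from KRT80 to KRT18. The tested genes lay at the ends of this cluster. Only 8 of the 27 genes were tested, and 18 had fewer than 10 counts in every sample. The tested genes at the KRT80 end were KRT80, KRT7, KRT86 and KRT81, which lie within 99.5 kb of each other by their starts. All 4 were called lower, against 20.8% of all tested genes, with KRT80 at only -0.11 and KRT86 barely past the threshold. KRT86, a hair keratin, was at 0.68, 0.99 and 0.93 CPM in ATF4 KO samples, against 1.31, 1.25 and 1.38 CPM in parental samples (log2 fold change -0.59, SE 0.25, adjusted p = 0.0479). Its call was lost in 10 of 14 alternatives, among them without ATF4 KO replicate 1 (-0.46) or 3 (-0.64) and without parental replicate 1 (-0.59), 2 (-0.62) or 3 (-0.56). KRT86 and KRT81 are close in sequence, and the annotated span of KRT86 overlaps those of KRT7 and KRT81 without shared exon bases, so the counts of these genes are uncertain. At the other end KRT79 and KRT78, near 1 CPM, were not called (-0.14 and 0.24).

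**Figure D3:**
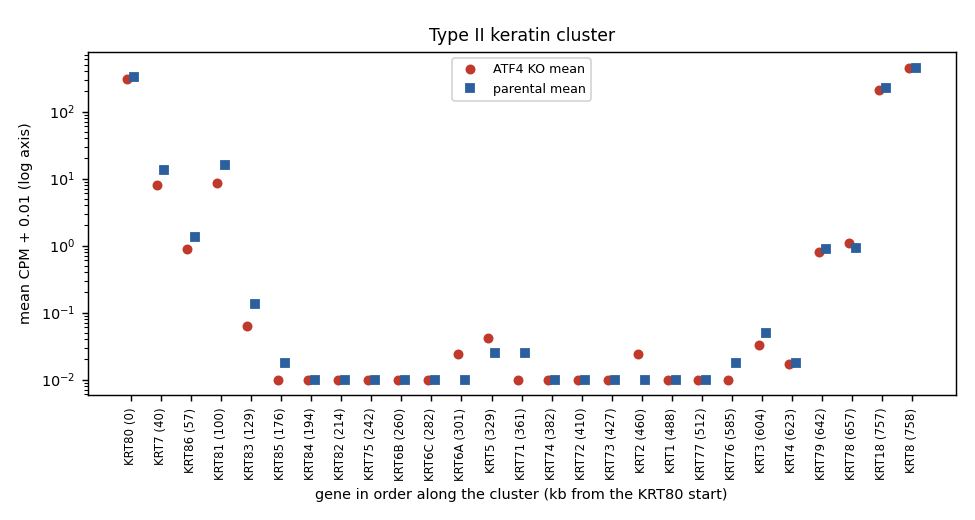
Mean level of the 27 keratin genes of the type II cluster in ATF4 KO (red circles) and parental cells (blue squares), in CPM with 0.01 added (log axis), in order along the chromosome with the distance of each start from that of KRT80 in kb. The genes in the middle are near the axis floor in both groups, while KRT80 (303 against 328 CPM), KRT18 (210 against 223.5 CPM) and KRT8 (453 against 441 CPM) stand at the ends, and KRT7 and KRT81 lie lower in ATF4 KO cells (8.01 against 13.5 CPM and 8.48 against 16.2 CPM).

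The 2 epithelial surface proteins moved in opposite directions. EPCAM, an adhesion molecule that marks most carcinomas, was at 50.9, 56.3 and 50.7 CPM in ATF4 KO samples, against 57.3, 61.6 and 61.6 CPM in parental samples. ATF4 KO replicate 2 came close to parental replicate 1, but the groups did not overlap, and the log2 fold change was -0.19 (SE 0.044, adjusted p = 2.70e-04). MUC1, a heavily glycosylated mucin of the apical surface, was at 11.1, 9.44 and 12.3 CPM in ATF4 KO samples, against 7.87, 5.57 and 6.29 CPM in parental samples. Every ATF4 KO sample lay above every parental sample, with a spread within each group that was wide compared with that of the keratins. MUC1 (chromosome 1, 155185824 to 155192916) was higher by 1.67-fold, a log2 fold change of 0.74 (SE 0.11, adjusted p = 1.89e-06) and a neighbour-corrected value of 0.62.

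MUC1 had the largest rise of the 39 genes, and its promoter is shown because it holds the sequence through which ZEB and SNAI factors are known to bind, the E-box CACCTG. The stretch is chr1:155192917-155193165 of GRCh38.p14 (RefSeq), on the minus strand, up to the second base before the more upstream of its 2 RefSeq starts. Capitals mark CACCTG.
MUC1: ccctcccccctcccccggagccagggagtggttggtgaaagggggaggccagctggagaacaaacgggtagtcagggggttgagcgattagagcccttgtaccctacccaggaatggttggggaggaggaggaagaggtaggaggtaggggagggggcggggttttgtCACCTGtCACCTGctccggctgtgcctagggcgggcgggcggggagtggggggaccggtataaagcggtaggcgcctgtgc
The 2 E-boxes start at positions -82 and -75, where -1 is the base just before that start. Windows from 250 bases before to 50 bases after a RefSeq start were held for 21 of the 39 genes, 42 windows in all since some genes have several starts. On either strand, CACCTG was present in 13 of these windows (31.0%), against 20.6% of 35116 windows of all genes. The 13 windows belonged to 10 genes. MUC1, DSG2, TJP1 and ZEB1 were called higher, DSP was called lower, and OCLN and JUP were not called. CLDN3, CLDN7 and DSC2 were not tested. Among the higher genes F11R had no window. Of the lower genes, KRT7, KRT81, KRT80, KRT18, KRT19, EPCAM, PKP2, SNAI1 and SNAI2 had none. The motif counts here therefore leave out most of the lower genes and do not compare the directions. A link between this sequence and the fold changes was not tested. The C/EBP-ATF element TGATGNAAN, the kind of site that ATF4 binds with C/EBP partners, was in 0 of the 42 windows, against 3.61% of all. The HIF core ACGTG was in 7 of the 42 (16.7%), against 21.4%. None of the 3 motifs contains another, though their ends can share letters, windows of 1 gene can overlap, and a match describes the letters only.

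Of the 4 cadherins among the 39 genes, N-cadherin was the one expressed. CDH2 was at 267, 258 and 261 CPM in ATF4 KO samples, against 269, 272 and 261 CPM in parental samples. The groups overlapped, and the log2 fold change was -0.029 (95% interval -0.084 to 0.025, adjusted p = 0.429). The neighbour-corrected value of -0.075 passed the threshold (adjusted p = 0.0302). E-cadherin, the adhesion receptor whose loss defines EMT, had 2, 5 and 3 counts in ATF4 KO samples, against 6, 0 and 4 counts in parental samples. P-cadherin (CDH3), its neighbour on chromosome 16, had at most 2 counts in a sample, and CDH11, a mesenchymal cadherin on the same chromosome, at most 5. With 0.5 CPM added, the log2 ratio of CDH1 to CDH2 was -8.93, -8.73 and -8.86 in ATF4 KO samples and -8.72, -9.09 and -8.78 in parental samples. The difference of 0.024 was within the spread of the samples (two-sided exact permutation p = 0.9). The 0.5 CPM added exceeds every CDH1 level (0 to 0.138 CPM) and largely sets this ratio. Neither the ratio nor its p therefore measures whether CDH1 is alike in the groups. With counts this low a change of E-cadherin was not detectable at this depth.

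The catenins link cadherins to the actin skeleton. CTNNA1, alpha-catenin, was at 761, 750 and 752 CPM in ATF4 KO samples, against 728, 730 and 718 CPM in parental samples. The groups did not overlap, yet the log2 fold change of 0.057 (95% interval 0.004 to 0.11) was not called (adjusted p = 0.087). It passed with scaling by total counts, DESeq2 and limma-voom, at 0.083, 0.052 and 0.057. CTNND1, p120-catenin, which stabilises cadherins at the surface, was at 20.2, 19.1 and 19.5 CPM in ATF4 KO samples, against 20.6, 19.7 and 19.2 CPM in parental samples. These samples overlapped (-0.018, 95% interval -0.14 to 0.105). CTNND1 overlaps the annotated readthrough gene TMX2-CTNND1 on the same strand, so its count is uncertain. Beta-catenin (CTNNB1), which bridges cadherins and alpha-catenin and is not among the 39, was higher in ATF4 KO cells at 411, 399 and 404 CPM, against 342, 348 and 342 CPM in parental cells (0.23, SE 0.027, adjusted p = 1.97e-10).

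VIM, the intermediate filament of mesenchymal cells, was the most abundant of the 39 genes. It was at 5293, 5114 and 5091 CPM in ATF4 KO samples, against 4819, 4965 and 4640 CPM in parental samples. The lowest ATF4 KO sample was above the highest parental sample, and the log2 fold change was 0.10 (SE 0.029, adjusted p = 2.98e-03). Genes around VIM on chromosome 10 had a median of 0.12, and the neighbour-corrected value of VIM was -0.014 (adjusted p = 0.758). Its difference is therefore the size of that of the surrounding genes.

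At the tight junction, scaffold and adhesion proteins were slightly higher and the main claudin was lower. TJP1 (ZO-1), the scaffold that ties claudins to actin, was at 201, 201 and 207 CPM in ATF4 KO samples, against 186, 182 and 190 CPM in parental samples. F11R, the junctional adhesion molecule JAM-A, was at 78.8, 74.8 and 76.0 CPM in ATF4 KO samples, against 68.2, 66.6 and 66.2 CPM in parental samples. Both sets of samples were apart. F11R had a log2 fold change of 0.19 (SE 0.037, adjusted p = 2.98e-05) and TJP1 of 0.13 (SE 0.029, adjusted p = 3.00e-04). F11R remained called in the neighbour-corrected fit (0.15), and TJP1 was not (0.068, adjusted p = 0.0597). F11R shares 36.6% of its annotated exon bases with AL591806.3 on the same strand, so its count is uncertain. OCLN, occludin, was at 13.6, 12.9 and 13.5 CPM in ATF4 KO samples, against 13.4, 16.8 and 14.4 CPM in parental samples. Parental replicate 1 lay among the ATF4 KO samples, and the log2 fold change of -0.16 was not called (adjusted p = 0.0946). Without parental replicate 1 occludin was called lower at -0.23 (adjusted p = 0.0282).

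CLDN2, the claudin that makes the proximal tubule permeable to cations and water, fell to 1368, 1385 and 1376 CPM in ATF4 KO samples, against 1995, 2061 and 1976 CPM in parental samples. The ATF4 KO samples lay close together and far below the parental samples. CLDN2 (chromosome X, 106900164 to 106930861) had a log2 fold change of -0.55 (SE 0.028, adjusted p = 1.29e-23), the smallest p of the 39 genes. Its neighbours on chromosome X had a median of -0.22, and the neighbour-corrected value was -0.33 (adjusted p = 9.89e-15). Of the 39 genes, the other claudins with enough counts, CLDN1, CLDN4 and CLDN12, did not pass the test. CLDN1, a barrier-forming claudin, had a log2 fold change of -0.024 (95% interval -0.125 to 0.076), CLDN4, which limits sodium passage, of -0.018 (-0.076 to 0.041), and CLDN12 of -0.035 (-0.13 to 0.059). Their mean levels were 36.3 CPM in ATF4 KO and 36.9 CPM in parental cells for CLDN1, 171 and 173 CPM for CLDN4, and 38.5 and 39.5 CPM for CLDN12. For CLDN12, annotated exons are shared with GTPBP10 and CDK14 on the same strand.

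CLDN3 and CLDN4 are neighbours on chromosome 7 with starts 29.3 kb apart. CLDN4 had 6815, 8024 and 8293 counts in ATF4 KO samples and 7310, 7829 and 7326 counts in parental samples, while CLDN3 had 0, 5 and 2 counts in ATF4 KO samples and 1 in each parental sample. CLDN7 had a single count in 1 ATF4 KO sample, and CLDN10, a claudin of the thick ascending limb and proximal tubule, had 0 counts in all 6 samples. The upstream stretches of CLDN2, the claudin that changed, and of CLDN3, the silent one, are shown because they differ in base composition. They are chrX:106899914-106900062 on the plus strand and chr7:73770271-73770520 on the minus strand (GRCh38.p14, RefSeq starts), cut to the bases outside annotated exons. The capitals mark the HIF core ACGTG, here on the opposite strand.
CLDN2: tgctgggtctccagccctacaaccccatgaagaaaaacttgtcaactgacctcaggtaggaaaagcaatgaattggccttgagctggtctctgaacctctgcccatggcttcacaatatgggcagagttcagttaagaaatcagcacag
CLDN3: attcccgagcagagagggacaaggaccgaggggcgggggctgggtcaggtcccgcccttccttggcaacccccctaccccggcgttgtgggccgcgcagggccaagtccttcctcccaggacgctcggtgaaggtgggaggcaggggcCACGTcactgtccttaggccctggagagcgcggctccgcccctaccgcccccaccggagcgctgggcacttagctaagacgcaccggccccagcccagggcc
The window of CLDN2 at the start shown held 1 CpG in 300 bases and that at its other RefSeq start held 2, while the window of CLDN3 held 24. The median over all windows was 14, with quartiles of 4 and 28. CpG number did not sort the claudins by level. The expressed CLDN1, CLDN12 and CLDN4 held 31, 15 and 5. The windows of CLDN7, at or near 0 counts, held 30 and 10, and those of CLDN10 held 12 and 36. A link between composition and level was not tested. No E-box was found in either CLDN2 window, and the CLDN3 window held 1 at position 37, outside the stretch printed.

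**Figure D4:**
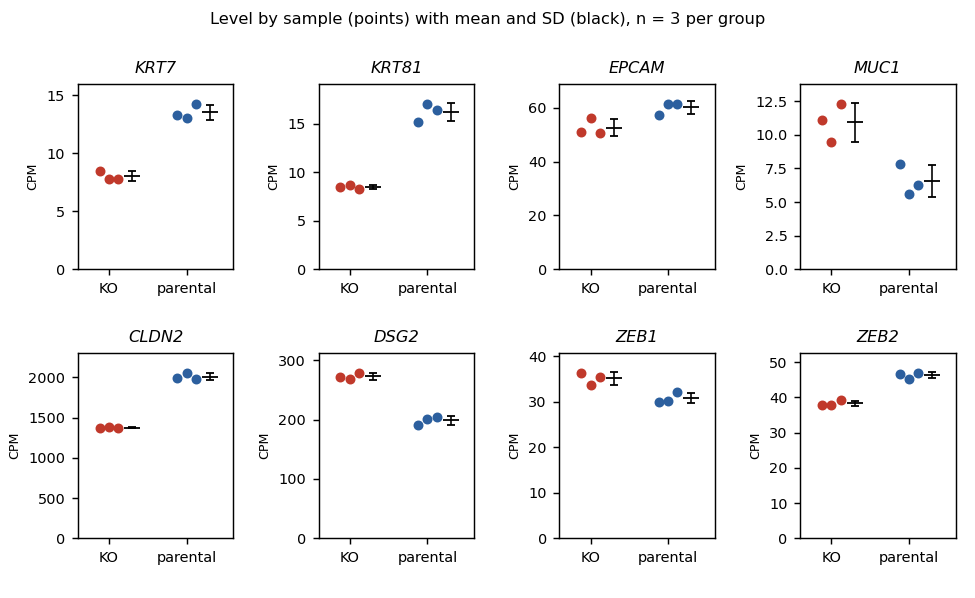
Level in CPM (axes from 0) of 8 genes in each sample, with red points for ATF4 KO and blue points for parental samples, and the mean with its SD in black (n = 3 per group). KRT7, KRT81, EPCAM, CLDN2 and ZEB2 are lower and MUC1, DSG2 and ZEB1 higher in ATF4 KO cells, with no overlap between groups, and the gap between the groups is narrowest for EPCAM.

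Desmosomal genes split between higher and lower. DSG2, desmoglein 2, the adhesive desmosomal cadherin of simple epithelia, was at 272, 268 and 280 CPM in ATF4 KO samples, against 191, 200 and 205 CPM in parental samples. All ATF4 KO samples were well above the parental ones. DSG2 (chromosome 18, 31498043 to 31549008) was higher by 1.38-fold, at a log2 fold change of 0.46 (SE 0.029, adjusted p = 1.32e-19) and a neighbour-corrected value of 0.41. It is the last of 7 genes in the desmosomal cadherin cluster, and the other 6, DSC1 to DSC3, DSG1, DSG3 and DSG4, had fewer than 10 counts in every sample, with 0 for DSC2, the desmocollin usually paired with DSG2. Its upstream stretch, chr18:31497927-31498042 on the plus strand (GRCh38.p14, RefSeq start), is shown because DSG2 had the second largest rise and carries an E-box there, in capitals as read on the opposite strand.
DSG2: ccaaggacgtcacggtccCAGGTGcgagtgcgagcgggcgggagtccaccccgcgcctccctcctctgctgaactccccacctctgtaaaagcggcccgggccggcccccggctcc
This E-box starts at position -232, and another at -116 lies in an annotated exon and is not printed.

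Transcripts of the plaque genes among the 39, DSP, JUP, PKP2 and PKP4, differed by less than 0.2 on the log2 scale. DSP, desmoplakin, which ties the plaque to keratin, was at 107, 105 and 107 CPM in ATF4 KO samples, against 120, 110 and 113 CPM in parental samples. Its log2 fold change was -0.10 (SE 0.033, adjusted p = 8.45e-03), but the genes around it on chromosome 6 had a median of -0.13, and the neighbour-corrected value was 0.026. Without parental replicate 1 the call of DSP was lost (-0.070, adjusted p = 0.137). JUP, plakoglobin, shared by desmosomes and adherens junctions, was at 231, 233 and 238 CPM in ATF4 KO samples, against 231, 236 and 225 CPM in parental samples, and was not called (0.019, 95% interval -0.037 to 0.074). PKP2, plakophilin 2, was at 37.0, 33.95 and 36.6 CPM in ATF4 KO samples, against 39.7, 40.3 and 38.6 CPM in parental samples (-0.14, adjusted p = 0.0158). Leaving out ATF4 KO replicate 2 (-0.10, adjusted p = 0.14) or parental replicate 2 (-0.13, adjusted p = 0.0634) ended that call. PKP4, an armadillo protein related to p120-catenin, was at 94.2, 92.0 and 95.7 CPM in ATF4 KO samples, against 87.5, 87.6 and 86.9 CPM in parental samples (0.11, adjusted p = 8.84e-03). Without ATF4 KO replicate 3, PKP4 was at 0.091 (adjusted p = 0.0537). In the neighbour-corrected fit DSP and PKP4 were not called, and PKP2 stayed just within the threshold (-0.12).

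The EMT factors moved in both directions, with ZEB1 higher and ZEB2, SNAI1 and SNAI2 lower. ZEB1, a zinc finger repressor of epithelial genes, was at 36.4, 33.7 and 35.4 CPM in ATF4 KO samples, against 30.0, 30.2 and 32.1 CPM in parental samples. ZEB2, its paralog, was at 38.0, 38.0 and 39.2 CPM in ATF4 KO samples, against 46.7, 45.3 and 47.1 CPM in parental samples. The groups did not overlap for either gene. ZEB1 had a log2 fold change of 0.19 (SE 0.052, adjusted p = 1.87e-03), and its neighbour-corrected value of 0.090 was not called (adjusted p = 0.177). ZEB2 was at -0.27 (SE 0.046, adjusted p = 1.96e-06) and -0.32 after the correction. The log2 ratio of ZEB1 to ZEB2, looked at after their values were seen and given without a test, was -0.061, -0.17 and -0.15 in ATF4 KO samples and -0.63, -0.58 and -0.55 in parental samples.

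SNAI1, or Snail, was at 11.7, 13.9 and 12.5 CPM in ATF4 KO samples, against 16.5, 15.5 and 15.2 CPM in parental samples (-0.30, SE 0.075, adjusted p = 7.58e-04). It lies on chromosome 20, where the surrounding genes had a median of -0.17, and its neighbour-corrected value was -0.13 (adjusted p = 0.173). SNAI2, or Slug, was at 41.84, 40.98 and 41.47 CPM in ATF4 KO samples, against 45.9, 46.7 and 44.2 CPM in parental samples (-0.14, SE 0.046, adjusted p = 0.0107). Neither overlapped between groups. Without parental replicate 2, SNAI2 was at -0.12 (adjusted p = 0.0568). TWIST1 had 0 counts in all 6 samples. Of the epithelial regulators, GRHL2, a transcription factor that maintains epithelial genes, had 0 counts throughout and ESRP1 had 1 count in 1 parental sample. ESRP2, which directs epithelial splicing together with ESRP1, was at 2.63, 2.11 and 2.35 CPM in ATF4 KO samples, against 2.23, 1.46 and 2.26 CPM in parental samples. These samples overlapped, and the wide interval of its log2 fold change, -0.10 to 0.60 around 0.25, left a change of that size undetectable at this depth.

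Compared per kilobase of annotated exon, the order of levels was led by VIM, at 1002 CPM per kb in ATF4 KO and 932 CPM per kb in parental cells. CLDN2 followed at 404 and 590 CPM per kb, then CTNNA1 at 85.4 and 82.1, and KRT80 at 69.6 and 75.3. KRT18 and KRT8, next in the order, exchanged places, since KRT8 was higher in ATF4 KO cells (65.9 against 65.2) and KRT18 in parental cells (69.5 against 64.1). CDH2, KRT19, JUP, DSG2 and CLDN4 followed, at 52.9, 47.5, 47.4, 44.2 and 36.4 CPM per kb in ATF4 KO cells and 54.0, 50.3, 46.7, 32.1 and 36.9 CPM per kb in parental cells. KRT19 and JUP lay at nearly the same level in ATF4 KO cells. Of the tested genes ESRP2 was lowest, at 0.42 and 0.36 CPM per kb. Exon lengths are the union over annotated transcripts, so genes with long, rarely used exons rank lower on this scale.

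Other genes of the same structures were also counted, in 8 lists that hold 170 genes, 99 of them tested. Of the 99, 34 were higher and 28 lower, 62.6% in all, with a median log2 fold change of 0.059. Of all tested genes 21.2% were higher and 20.8% lower, 42.0% in all. With a strict filter (at least 1 CPM in 3 samples) 28 genes of the 8 lists were higher and 29 lower. Among the other keratins 6 of 28 were tested, and 33.3% of those were called. KRT10, a type I keratin of differentiating epidermis, was higher (29.2 against 25.1 CPM, 0.21, adjusted p = 1.16e-03) but not in the neighbour-corrected fit (0.13, adjusted p = 0.0526), KRT86 was lower as given above, and KRT15, KRT34, KRT78 and KRT79 were not called.

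In the adherens junction list 8 of 20 tested genes were higher and 6 lower, 70.0% in all against 42.0% of all tested genes. Of the higher genes, NECTIN3 and AFDN were near the threshold (edgeR adjusted p = 0.0476 and 0.039). With the strict filter, with DESeq2 or in the neighbour-corrected fit, 6 genes of this list were higher. CDH6, K-cadherin, a cadherin of the developing and cancerous kidney, was at 565, 574 and 595 CPM in ATF4 KO samples, against 452, 466 and 435 CPM in parental samples. Its log2 fold change of 0.36 (adjusted p = 1.19e-15) stood against a median of 0.29 for the genes around it on chromosome 5, and its neighbour-corrected value was 0.068 (adjusted p = 0.0581). CDH17, the liver-intestine cadherin, was lower at 11.6, 10.7 and 10.4 CPM in ATF4 KO samples, against 18.4, 17.7 and 16.5 CPM in parental samples (-0.69, adjusted p = 2.78e-11). CDH4, R-cadherin, was lower at 7.81, 8.86 and 7.57 CPM in ATF4 KO samples, against 13.5, 13.4 and 14.8 CPM in parental samples (-0.78, adjusted p = 3.99e-11). NECTIN4, an immunoglobulin-like adhesion molecule, was higher at 1.43, 1.59 and 2.52 CPM in ATF4 KO samples, against 0.78, 1.00 and 0.83 CPM in parental samples (1.09, SE 0.24, adjusted p = 1.41e-04).

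In the tight junction list 10 of 27 tested genes were higher and 5 lower, 55.6% in all against 42.0% of all tested genes. The 5 lower ones were CGNL1, or paracingulin, at -0.46 (154 against 211 CPM, adjusted p = 1.52e-19), the polarity proteins PARD6B at -0.39, PARD3B at -0.28 and PARD3 at -0.17, and the tricellular junction protein MARVELD2 at -0.22. MARVELD2 was not called without ATF4 KO replicate 2 (-0.15) or parental replicate 3 (-0.16). JAM3, a junctional adhesion molecule like F11R, was higher at 10.8, 10.9 and 12.4 CPM in ATF4 KO samples, against 5.89, 5.14 and 5.75 CPM in parental samples (1.03, SE 0.096, adjusted p = 2.96e-13). CLDN6, a claudin of embryonic epithelia, was also called higher (1.84, adjusted p = 4.46e-03), at only 0.34 against 0.092 CPM, and lost the call without ATF4 KO replicate 3 (1.53, adjusted p = 0.0561). It passed the count filter only through the ATF4 KO samples, where it is high. Of the other desmosomal genes 3 of 10 were tested, and 66.7% of those were called, against 42.0% of all tested genes. PKP3, plakophilin 3, was higher at 37.3, 36.3 and 35.9 CPM in ATF4 KO samples, against 25.8, 26.5 and 25.6 CPM in parental samples (0.49, SE 0.052, adjusted p = 1.16e-11). PERP, a desmosomal membrane protein, was lower at -0.16, and EVPL, envoplakin, was not called at -0.11 but was lower in the neighbour-corrected fit (-0.25, adjusted p = 3.19e-05).

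Hemidesmosomes fix keratin filaments to the basement membrane through integrins that bind laminin. In this list 1 of 6 tested genes was higher and 2 were lower, and 2 further genes were too low to test. ITGB4, the beta4 integrin, had 0, 2 and 5 counts in ATF4 KO samples and 0 in each parental sample. COL17A1 had 14, 10 and 4 counts in ATF4 KO samples, against 0, 2 and 1 counts in parental samples. A change of ITGB4 or COL17A1 was therefore not tested, and the calls below do not cover them. LAMB3, a laminin beta chain, was at 321, 317 and 315.5 CPM in ATF4 KO samples, against 389.5, 397.7 and 392.1 CPM in parental samples, and the groups were apart. Its log2 fold change was -0.31 (SE 0.027, adjusted p = 3.56e-14). LAMA3, a laminin alpha chain, averaged 247 against 236 CPM and was not called (0.065). LAMA3 was called higher without ATF4 KO replicate 1 (0.082) or parental replicate 1 (0.086). ITGA6, the alpha6 integrin, was higher (0.16), and the tetraspanin CD151 was lower (-0.17), though at 0.039 in the neighbour-corrected fit. PLEC and DST, the plakins of the inner plaque, were not called (-0.041 and -0.037), and DST passed at -0.13 without parental replicate 2.

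Among other EMT-related transcription factors 8 of 14 were tested. SOX9, a factor of renal tubule repair, was higher at 19.1, 18.2 and 20.1 CPM in ATF4 KO samples, against 13.59, 13.03 and 13.51 CPM in parental samples (0.52, SE 0.069, adjusted p = 1.08e-08). TCF3 and TCF4, bHLH factors that bind E-boxes, were higher at 0.11 and 0.38. TCF3 was not called without ATF4 KO replicate 3 (0.092), nor was TCF4 without ATF4 KO replicate 2 (0.41) or 3 (0.30) or parental replicate 2 (0.33) or 3 (0.23). FOXC1 (-0.27, adjusted p = 3.09e-06), KLF8 (-0.25) and SOX4 (-0.14) were lower, and KLF8, on chromosome X, was at -0.009 in the neighbour-corrected fit, where TCF3 and TCF4 were not called either. SNAI3 and PRRX2 were not called.

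In the list of further epithelial genes 5 of 15 tested genes were higher and 5 lower, 66.7% in all against 42.0% of all tested genes. PRSS8, prostasin, a membrane-bound serine protease, had 58, 38 and 77 counts in ATF4 KO samples, against 3, 10 and 11 counts in parental samples (2.77, SE 0.38, adjusted p = 1.86e-08). EPPK1, a keratin-binding plakin, and ST14, matriptase, the protease partner of prostasin, were higher at 2.33 and 1.19, though low, at a mean of 0.25 against 0.047 CPM and 0.39 against 0.17 CPM. PRSS8, EPPK1 and ST14 passed the count filter only through the ATF4 KO samples, where they are high. Their calls are therefore no independent sign of a rise. The strict filter left these genes untested, and 2 genes of the list were then higher. RBM47 and KLF5 were higher at 0.10 and 0.31 but not in the neighbour-corrected fit. The calls of ST14, KLF5 and RBM47 were lost without ATF4 KO replicate 1 (1.24, 0.25 and 0.074), those of ST14 and KLF5 also without ATF4 KO replicate 2 (0.94 and 0.30) or parental replicate 1 (1.16 and 0.25), that of KLF5 without parental replicate 3 (0.27) and that of ST14 without parental replicate 2 (1.06). MAL2, a protein of apical transport, was lower at 1.53, 1.18 and 1.40 CPM in ATF4 KO samples, against 3.54, 4.41 and 3.47 CPM in parental samples (-1.48, SE 0.17, adjusted p = 1.38e-10). ELF3 (-0.23), AP1M2 (-0.20), MARVELD2 and CD24 (-0.11) were lower as well, with CD24 at -0.005 in the neighbour-corrected fit. EHF, TP63 and OVOL1, factors of stratified or glandular epithelia, were among 9 genes too low to test.

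Mesenchymal genes split likewise, with 5 of 16 tested genes higher and 6 lower, 68.8% in all against 42.0% of all tested genes. FN1, fibronectin, averaged 4788 ± 227 CPM in ATF4 KO cells and 9112 ± 299 CPM in parental cells (SD, n = 3 each). Its log2 fold change was -0.93 (adjusted p = 5.56e-28). PDGFRB, a receptor of mural and stromal cells, was at 4.57, 4.84 and 5.12 CPM in ATF4 KO samples, against 10.8, 10.9 and 8.81 CPM in parental samples (-1.06, SE 0.10, adjusted p = 1.04e-12). SPARC, a matrix glycoprotein, was at 1.02, 1.23 and 1.18 CPM in ATF4 KO samples, against 2.28, 2.62 and 2.26 CPM in parental samples (-1.05, SE 0.19, adjusted p = 1.04e-05). For both genes the groups were apart. The 5 higher genes were COL5A1 (0.26), the smooth muscle protein CNN1 (0.24), the collagen cross-linking enzymes LOXL2 (0.13) and LOX (0.17), and COL6A3 (0.49). COL6A3 was not called without ATF4 KO replicate 3 (0.36) or parental replicate 2 (0.42), and LOXL2 not in the neighbour-corrected fit (0.050). Neither the epithelial nor the mesenchymal list was called in a single direction, and their median log2 fold changes were 0.045 and -0.046.

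**Figure D5:**
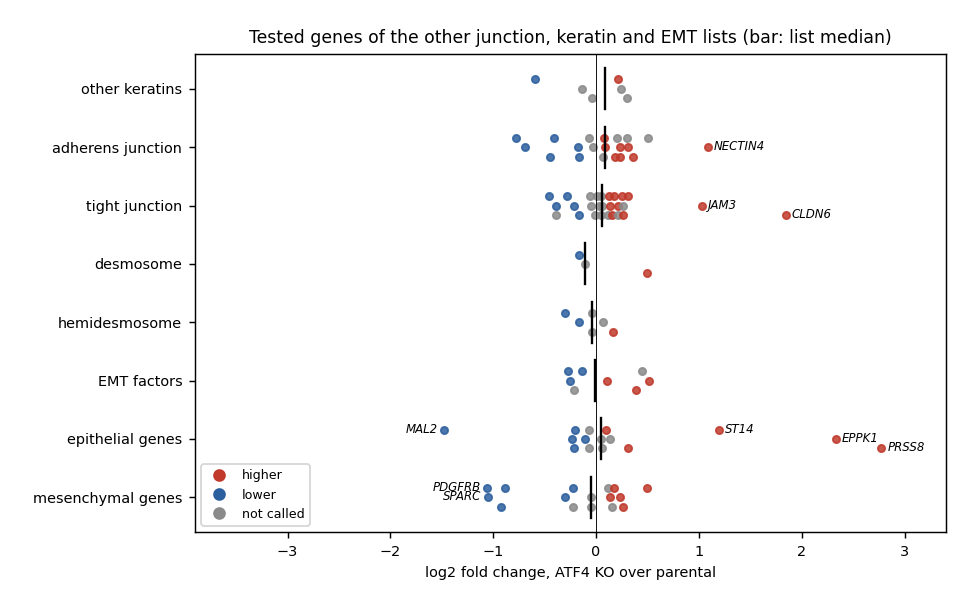
Log2 fold change (ATF4 KO over parental) of the tested genes of 8 further lists, with red points for called higher, blue for called lower and grey for not called genes, and a black bar at each list median. Genes changed by at least 1 are named. Every list has points on both sides of 0, MAL2 lies lowest at -1.48, and PRSS8 lies highest at 2.77.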

How the data were processed

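RNA sequencing of 3 ATF4 KO and 3 parental RCC4 samples was deposited as raw counts of reads per gene. The authors used, from the submitters' processing notes, bcl2fastq 2.20, cutadapt, STAR and HTSeq with GRCh38, after a stranded mRNA library kit. The sources used here give neither the annotation release nor the strand setting. Genes were named from a table of gene names (60370 of 60683 identifiers) and GENCODE 29 (a further 289), whose coordinates and exon lengths are given. Genes kept by filterByExpr (15321) were tested in R 4.3.3 with the quasi-likelihood test of edgeR 4.0.16 after TMM scaling, with Benjamini-Hochberg adjustment over all tested genes and calls at adjusted p below 0.05. The test was checked on simulated counts with 200 changed genes. No 2 samples were identical, and replicates differed by 3.59 to 5.80 times sampling noise. Alternatives were other scalings, filters, DESeq2 1.42.0, limma-voom (3.58.1), a replicate block, leaving out each sample, and removal of the median of 50 genes on either side. Some genes of the marker and further lists are not reported here and were left out of counts and sums. The genes and lists were chosen with earlier results of these data known. All 39 genes were named or counted, with sample values for those changed by at least 0.5 on the log2 scale and for CDH1, CDH2, VIM, EPCAM, ZEB1, KRT8 and KRT18 by rule. Sample values of other genes were added after they were seen. From the other lists, called genes changed by at least 1 with a mean of at least 1 CPM, the 2 with the smallest p, and all genes of a count of 5 or fewer were named, and CTNNB1, CDH4, CLDN6 and JAM3 are also given where they bear on a group. Promoters are from RefSeq (GRCh38.p14).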

Additional observations from a re-analysis of the deposited data

How the results depend on the processing

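Of the 29 tested genes, 16 had the same call and direction in all 14 alternatives, and 10 of the 19 called genes kept their call throughout. Removing the median of neighbouring genes changed most, with 3 genes called higher in place of 7 and 11 lower in place of 12. The 11 include CDH2, which was not called in the main fit. There VIM was at -0.014 and DSP at 0.026, each the reverse of its direction. CD151 of the hemidesmosome list, which is not among the 29, also reversed, at 0.039. The cause was not tested. The same-numbered samples of the groups did not deviate together (correlations -0.03, 0.01 and -0.02), so the numbers were not taken as pairs. With the replicate block 7 genes were higher and 11 lower, and KRT19 was at -0.08 (adjusted p = 0.057). Leaving out 1 sample gave 6 to 7 higher and 10 to 12 lower genes. With scaling by total counts 9 were higher and 9 lower. The difference in the CDH1 to CDH2 ratio, which the CPM added to CDH1 largely sets, changed sign without ATF4 KO replicate 2 or parental replicate 2 (-0.03 and -0.09). Depth limits E-cadherin, CLDN3 and ESRP2 in particular.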
